A study of Homo sapiens with 12 samples.

Results

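A set of 9 genes of lipid droplets and neutral lipid metabolism were followed through the RNA of endometrial cells treated with AG-205. They were chosen by symbol and matched to the Ensembl identifiers of the counts, giving 9 of the 58735 genes listed: the droplet coat genes PLIN2 and PLIN3, the ester-forming enzymes SOAT1, DGAT1 and DGAT2, and the lipolysis genes PNPLA2, ABHD5, PNPLA3 and HILPDA. The rule uses no measured value, but the genes were chosen with earlier results of these data known. PLIN2 and DGAT2 parted the cell lines, with PLIN2 252-fold higher and DGAT2 57.3-fold lower in T-HESC than in HEC-1A without the compound. With AG-205, PNPLA3 rose 3.08-fold and DGAT2 fell 1.27-fold in HEC-1A, the latter a change that most other settings of the analysis did not call. In T-HESC no gene of the 9 passed the test, where 0.08% of all genes tested rose and 0% fell. PLIN2, SOAT1, PNPLA3 and ABHD5 were higher in every AG-205 library than in any control library, which 6.22% of genes tested showed.

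A lipid droplet is a store of triglyceride and cholesteryl ester inside a single layer of phospholipid, formed at the endoplasmic reticulum. DGAT1 and DGAT2 add the last acyl chain of a triglyceride, and SOAT1 joins a fatty acid to cholesterol, which takes free sterol out of membranes. Perilipins such as PLIN2 and PLIN3 coat the droplet and limit the access of lipases, while PNPLA2, the main triglyceride lipase of most cells, is switched on by its partner ABHD5 and held back by HILPDA. Endometrial stromal cells are known to hold such droplets when they decidualize, the change that prepares the lining for implantation.

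HEC-1A (written HEC1A in the labels) comes from an endometrial adenocarcinoma and has epithelial features. T-HESC are endometrial fibroblast-like cells immortalised with telomerase, so each cell type is represented by 1 line. Each line received AG-205, a small molecule in use as an inhibitor of the haem-binding membrane protein PGRMC1, at 15 µM over 32 h, or the vehicle DMSO. This gave 4 groups of 3 libraries, and by the labels the groups of a line differed by treatment alone. The labels name no culture or sequencing batch. In the paper, the effect of AG-205 on selected genes persisted in both lines when PGRMC1, alone or with its related proteins, was lowered by siRNA. Its authors hold that AG-205 should not be regarded as a PGRMC1 inhibitor. The paper speaks of 3 independent cultures, and the labels do not tie a treated library to a control library.

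The tables hold raw read counts per gene, with totals of 7168542 to 15178276 per library. The level of a gene is its CPM, the share of a library's reads per 1000000 after TMM scaling over all 12 libraries, with the SD over 3 libraries; a change is a log2 ratio from edgeR's quasi-likelihood test with its standard error (SE), and a gene passed at a Benjamini-Hochberg adjusted p under 0.05 over all genes tested. Of the 7 epithelial markers, all were above the floor of 3 counts in HEC-1A (EPCAM 243 CPM). In T-HESC controls 5 were, summing to 237 to 342 CPM against 1391 to 1546 CPM in HEC-1A controls; EPCAM was at 0.332 CPM and CDH1 at the floor, but KRT18 (154 CPM) and KRT19 (106 CPM, against 100.1 CPM in HEC-1A) were read there. All 8 stromal markers were above the floor in T-HESC (COL1A1 8704 CPM), against summed stromal levels of 13.5 to 21.7 CPM in HEC-1A controls. The fat cell genes ADIPOQ and LEP had no read in any library, while the other fat cell markers were read: CFD at 13.9 CPM in HEC-1A and 3.35 CPM in T-HESC controls, and FABP4, also made outside fat, at 143 CPM in T-HESC controls and at 892, 204.7 and 165 CPM with AG-205, the highest being replicate 1. Leukocyte markers summed to at most 1.596 CPM and endothelial markers to at most 1.05 CPM in any library. On the first principal component of T-HESC, AG-205 replicate 1 lay at 77.7 and the other 5 libraries between -29.3 and 1.84, so the T-HESC results of the 9 genes, and those of the list genes named, are also given without it. In bulk RNA, fewer cells carrying a transcript and less of it per cell cannot be told apart.

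Promoters were read from RefSeq (GRCh38.p14) for 5 of the 9 genes, PLIN2, PLIN3, SOAT1, PNPLA2 and ABHD5. They are shown for both perilipins, whose levels part differently between the lines, and for PNPLA2, whose window held a sterol motif. Each line gives 250 bases up to the start site, 5′ to 3′ on the gene's strand, with motif matches in capitals. The windows are chr9:19127493-19127742 (minus strand), chr19:4867668-4867917 (minus strand) and chr11:818664-818913 (plus strand).
PLIN2: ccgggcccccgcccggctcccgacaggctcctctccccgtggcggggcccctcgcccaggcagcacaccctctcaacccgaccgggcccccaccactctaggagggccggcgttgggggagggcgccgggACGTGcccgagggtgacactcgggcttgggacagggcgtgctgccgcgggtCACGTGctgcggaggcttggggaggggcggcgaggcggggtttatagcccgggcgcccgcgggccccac
PLIN3: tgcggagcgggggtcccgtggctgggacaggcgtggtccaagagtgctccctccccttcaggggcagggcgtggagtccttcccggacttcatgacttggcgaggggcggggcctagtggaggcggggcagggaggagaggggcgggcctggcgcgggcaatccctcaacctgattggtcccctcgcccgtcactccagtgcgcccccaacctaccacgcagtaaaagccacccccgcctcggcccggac
PNPLA2: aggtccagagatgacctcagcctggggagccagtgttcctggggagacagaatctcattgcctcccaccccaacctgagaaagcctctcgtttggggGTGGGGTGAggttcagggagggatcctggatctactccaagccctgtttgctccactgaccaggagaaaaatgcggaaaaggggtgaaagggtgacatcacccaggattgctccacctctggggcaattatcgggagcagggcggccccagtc

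The letters searched on both strands, in windows that also took in 50 bases past the start, were TCACNCCAC for a sterol regulatory element, ACGTG for the core of a hypoxia response element, and the PPAR DR1 motif, a direct repeat of AGGTCA parted by 1 base. ACGTG lay at 2 places in the PLIN2 window, the first 120 bases before the start, the other a CACGTG that reads the same on both strands and so counts as overlapping matches. This core occurs in 21.4% of 35116 RefSeq promoter windows. PNPLA2 held 1 match to the sterol element, GTGGGGTGA on the printed strand, 153 bases before the start; 1.13% of all windows hold 1. The PPAR DR1 motif, present in 0.0228% of windows, was not in any window of the 5 genes, and PLIN3, SOAT1 and ABHD5 held none of the 3 motifs. The PLIN2 window was 76.7% G and C and that of PNPLA2 59.3%, against a median of 58.7% over all windows, and CpG pairs reached 0.818 and 0.191 of the number expected from base content (median 0.579). A match is a description of letters only.

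PLIN2 (ENSG00000147872, chr9:19108375-19149290, minus strand) encodes the perilipin that covers droplets in cells other than fat cells. Its levels in HEC-1A were 0.657, 0.159 and 1.08 CPM with DMSO, from 8, 2 and 12 reads, and 0.681, 0.590 and 0.598 CPM with AG-205. In T-HESC they were 155, 179 and 141 CPM with DMSO and 255, 299 and 239 CPM with AG-205. The lines did not overlap, and within T-HESC the lowest treated library was above the highest control. Between the controls the difference was 7.98 on the log2 scale (SE 0.369, 95% interval 7.17 to 8.78, adjusted p = 2.29e-09, edgeR). PLIN2 was too low in HEC-1A for the filter on low counts and was not tested for AG-205 there; without the filter its log2 ratio was 0.03 (SE 0.484, adjusted p = 1).

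In T-HESC the mean PLIN2 level was 158 ± 19.0 CPM in controls and 264 ± 31.1 CPM with AG-205 (SD, n = 3), a log2 ratio of 0.73 (SE 0.221, 95% interval 0.22 to 1.24) with an unadjusted p of 0.0112 and an adjusted p of 0.558 in edgeR's test. Leaving out AG-205 replicate 1 gave 0.74 (SE 0.199, adjusted p = 0.246). With library quality weights, the setting that gives divergent libraries less say, PLIN2 was the gene of the 9 that passed in T-HESC (adjusted p = 0.0475, limma).

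PLIN3 (ENSG00000105355, chr19:4838341-4867694, minus strand), the perilipin that moves from the cytosol onto young droplets, was the highest of the 9 genes per length in both lines. Its HEC-1A levels were 177, 165 and 167 CPM with DMSO and 172, 160 and 150 CPM with AG-205. In T-HESC they were 341, 364 and 390 CPM with DMSO and 212, 318 and 428 CPM with AG-205. Treated and control libraries overlapped in each line, whereas every T-HESC library was above every HEC-1A library. The controls differed by 1.10 on the log2 scale, 2.15-fold (SE 0.213, adjusted p = 0.000642, edgeR), against the 252-fold of PLIN2. With AG-205 the HEC-1A log2 ratio was -0.08 (95% interval -0.27 to 0.12, adjusted p = 0.628). For T-HESC it was -0.21 (-0.86 to 0.44, adjusted p = 0.993), and 0.0048 without AG-205 replicate 1. A long noncoding RNA on the opposite strand overlaps 18.3% of the PLIN3 exon length, and whether reads were counted by strand is not given in the sources used here.

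**Figure D1:**
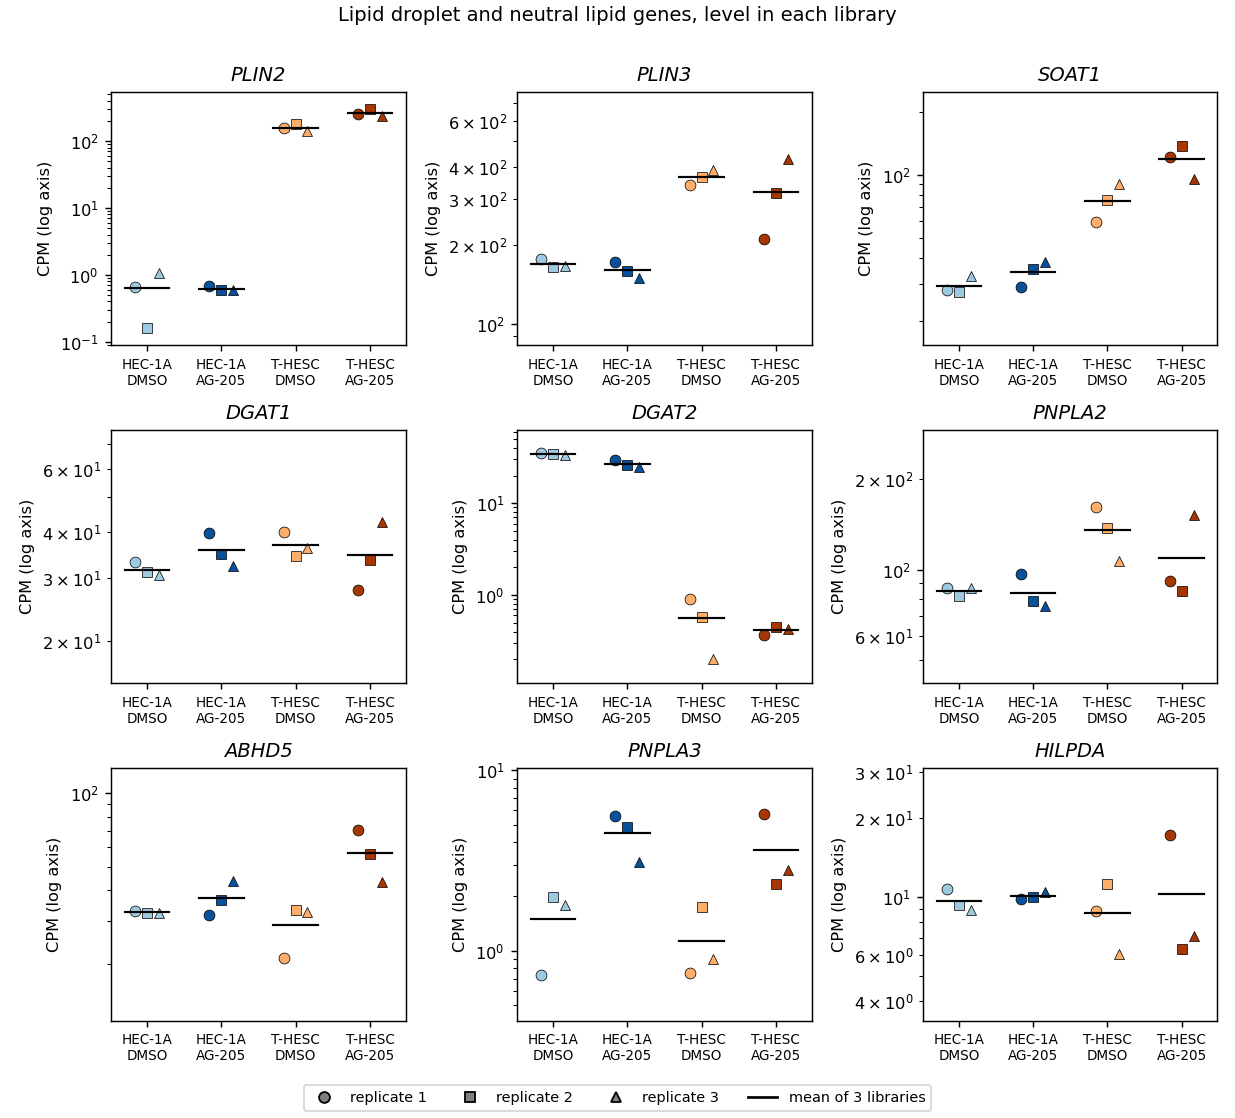
Level of each gene in each of the 12 libraries, in CPM on a log axis with a range of its own for each gene. Marker shapes give the replicate number, which was not taken as a pairing of libraries, and the line is the mean of 3 libraries. PLIN2 and DGAT2 stand apart between the lines, and PNPLA3 is higher in all AG-205 libraries than in the controls of the same line.

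SOAT1 (ENSG00000057252, chr1:179293714-179358680, plus strand) makes cholesteryl esters in the endoplasmic reticulum. HEC-1A held 28.2, 27.5 and 32.6 CPM with DMSO and 29.1, 35.5 and 38.1 CPM with AG-205. T-HESC held 59.6, 75.4 and 90.8 CPM with DMSO and 121, 138 and 95.8 CPM with AG-205. The order of the group means ran from HEC-1A controls through HEC-1A with AG-205 and T-HESC controls to T-HESC with AG-205, and of these neighbours only the HEC-1A groups overlapped. T-HESC controls were 2.55-fold above HEC-1A controls (log2 difference 1.35, SE 0.198, adjusted p = 6.87e-05, edgeR). The AG-205 log2 ratio was 0.22 in HEC-1A (SE 0.125, adjusted p = 0.304) and 0.64 in T-HESC (SE 0.249, 95% interval 0.067 to 1.22, adjusted p = 0.815), or 0.61 in T-HESC without AG-205 replicate 1.

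DGAT1 (ENSG00000185000, chr8:144314584-144326910, minus strand), the acyltransferase of the endoplasmic reticulum, differed little in level between the groups. HEC-1A libraries held 33.1, 31.0 and 30.6 CPM with DMSO and 39.9, 34.9 and 32.3 CPM with AG-205, and T-HESC libraries 40.1, 34.3 and 36.2 CPM with DMSO and 27.6, 33.5 and 42.6 CPM with AG-205. All T-HESC controls were above all HEC-1A controls by a small margin, and each treated group overlapped the controls of its line. The log2 difference between the control groups was 0.23 (95% interval -0.15 to 0.60) and did not pass (adjusted p = 0.281), and the AG-205 log2 ratios were 0.18 in HEC-1A (adjusted p = 0.301) and -0.11 in T-HESC (adjusted p = 0.993), all from edgeR; in T-HESC it was 0.017 without AG-205 replicate 1. HSF1 on the opposite strand covers 3.32% of its exon length and a long noncoding RNA on the same strand 10.7%.

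DGAT2 (ENSG00000062282, chr11:75759512-75801535, plus strand), the other triglyceride-forming acyltransferase, which also works at the droplet surface, had the opposite pattern to PLIN2 between the lines. HEC-1A libraries held 34.8, 34.0 and 33.2 CPM with DMSO and 29.2, 25.8 and 24.7 CPM with AG-205. T-HESC libraries held 0.902, 0.579 and 0.199 CPM with DMSO, from 12, 7 and 2 reads, and 0.365, 0.451 and 0.424 CPM with AG-205. Every HEC-1A library was thus far above every T-HESC library, and in HEC-1A all treated libraries were below all controls. The control groups differed by -5.84 on the log2 scale (SE 0.306, 95% interval -6.50 to -5.18, adjusted p = 6.06e-09, edgeR).

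The fall of DGAT2 in HEC-1A, from 34.0 ± 0.823 to 26.6 ± 2.34 CPM (SD, n = 3), had a log2 ratio of -0.35 (SE 0.103, 95% interval -0.57 to -0.13, adjusted p = 0.0465, edgeR). The call was lost in 9 of 14 other settings, with adjusted p from 0.0137 to 0.802, among them leaving out AG-205 replicate 2 or any 1 control library, and the log2 ratio stayed between -0.42 and -0.31. In T-HESC DGAT2 was too low to be tested, and the unfiltered fit gave -0.48 (SE 0.870, adjusted p = 0.952). Long noncoding RNAs on the opposite strand overlap 1.48% and 5.35% of the DGAT2 exon length.

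**Figure D2:**
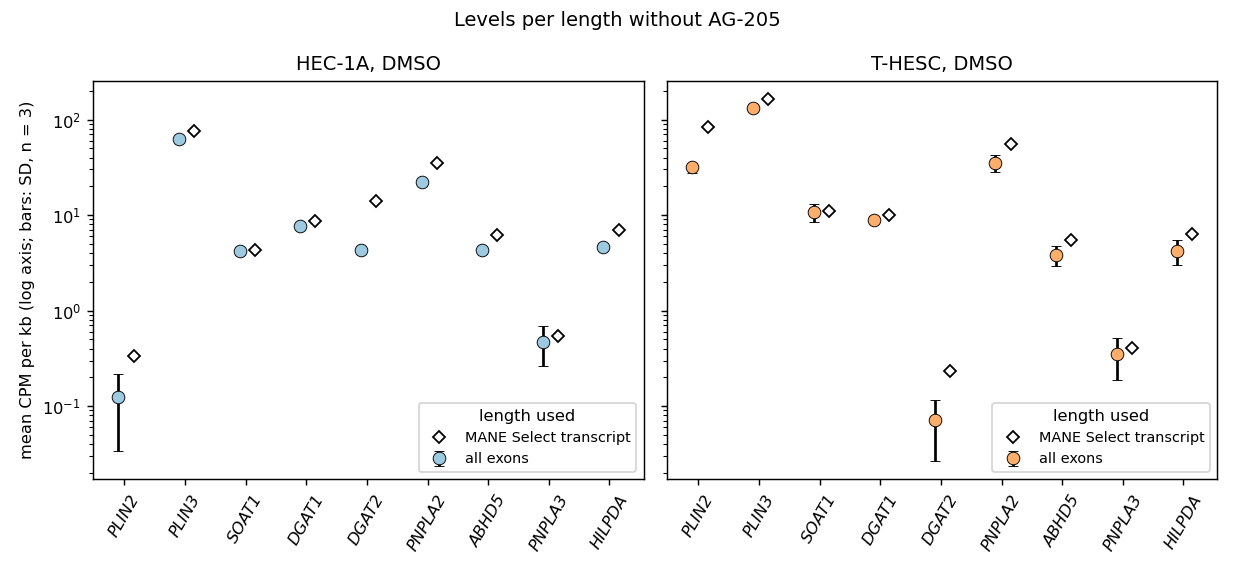
Mean level of each gene in the DMSO groups in CPM per kilobase on a log axis; filled circles divide by the length of all annotated exons, with bars for the SD over 3 libraries, and open diamonds by that of the MANE Select transcript. PLIN3 is highest in both lines, whereas the lowest gene is PLIN2 in HEC-1A and DGAT2 in T-HESC.

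Levels of different genes were compared per kilobase, by all annotated exons of a gene and by its MANE Select transcript, the reference transcript shared by RefSeq and Ensembl. In HEC-1A controls PLIN3 led at 62.0 CPM per kb of exons, followed by PNPLA2 at 22.2 and DGAT1 at 7.64. PNPLA3 at 0.472 and PLIN2 at 0.126 CPM per kb came last. In T-HESC controls PLIN3 at 133, PNPLA2 at 35.4 and PLIN2 at 31.6 CPM per kb led, with PNPLA3 at 0.354 and DGAT2 at 0.0709 CPM per kb last. The length used decided the order of some neighbours: DGAT2 was below DGAT1 in HEC-1A by exons (4.30 against 7.64 CPM per kb) and above it by the MANE Select transcript (14.1 against 8.64), and PLIN2 passed PNPLA2 in T-HESC by the latter (83.3 against 56.1).

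PNPLA2 (ENSG00000177666, chr11:818914-825573, plus strand), adipose triglyceride lipase, held 86.7, 81.6 and 86.7 CPM in HEC-1A with DMSO and 97.0, 78.9 and 75.7 CPM with AG-205. T-HESC held 162, 137 and 107 CPM with DMSO and 91.8, 84.9 and 152 CPM with AG-205. The treated T-HESC libraries overlapped their controls, while every T-HESC control was above every HEC-1A control. That difference was 0.67 on the log2 scale, 1.59-fold (SE 0.228, adjusted p = 0.0224, edgeR), and its call was lost in 6 of 19 other settings (adjusted p from 7.54e-05 to 0.0983), among them leaving out any 1 HEC-1A control or T-HESC control 1 or 2. The AG-205 log2 ratio was -0.02 in HEC-1A (95% interval -0.24 to 0.21, adjusted p = 0.947), with a sign that changed with the library left out, and -0.32 in T-HESC (-1.001 to 0.36, adjusted p = 0.993), or -0.22 there without AG-205 replicate 1. A long noncoding RNA on the opposite strand overlaps 10.5% of the PNPLA2 exon length.

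ABHD5 (ENSG00000011198, chr3:43690108-43734371, plus strand) encodes the protein that activates PNPLA2. HEC-1A libraries held 33.0, 32.2 and 32.3 CPM with DMSO and 31.9, 36.6 and 43.6 CPM with AG-205. T-HESC libraries held 21.1, 33.1 and 32.6 CPM with DMSO and 70.6, 56.4 and 43.4 CPM with AG-205. The control groups of the lines overlapped (log2 difference -0.17, 95% interval -0.64 to 0.31, adjusted p = 0.529), and every treated T-HESC library was above every T-HESC control. The T-HESC mean was 28.9 ± 6.78 CPM with DMSO and 56.8 ± 13.6 CPM with AG-205 (SD, n = 3), a log2 ratio of 0.96 (SE 0.285, 95% interval 0.30 to 1.62) with an unadjusted p of 0.00976 and an adjusted p of 0.552 in edgeR's test. Without AG-205 replicate 1, the library with the highest ABHD5 level, the log2 ratio was 0.76 (SE 0.248, adjusted p = 0.355). In HEC-1A it was 0.19 (SE 0.121, adjusted p = 0.338). ANO10 on the opposite strand overlaps 2.25% of the ABHD5 exon length.

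PNPLA3 (ENSG00000100344, chr22:43923792-43964488, plus strand), a droplet protein related to PNPLA2, was read at low counts, between 9 and 82 per library. HEC-1A held 0.739, 1.99 and 1.79 CPM with DMSO and 5.59, 4.87 and 3.11 CPM with AG-205. T-HESC held 0.752, 1.74 and 0.898 CPM with DMSO and 5.75, 2.33 and 2.80 CPM with AG-205. In each line all treated libraries were above all controls, and the lines overlapped in each treatment. The HEC-1A log2 ratio was 1.62, 3.08-fold (SE 0.318, 95% interval 0.93 to 2.31, adjusted p = 0.00637, edgeR), and it passed in 13 of 14 other settings, the exception being 1 fit of all 12 libraries (adjusted p = 0.22). In T-HESC the log2 ratio was 1.66 (SE 0.535, 95% interval 0.42 to 2.89, adjusted p = 0.632), or 1.14 (SE 0.465, adjusted p = 0.482) without AG-205 replicate 1. SAMM50, the neighbour on the same strand, shares 4.64% of the PNPLA3 exon length.

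HILPDA (ENSG00000135245, chr7:128455849-128458418, plus strand), a small droplet protein induced by low oxygen that inhibits PNPLA2, had overlapping levels in the 4 groups. HEC-1A held 10.7, 9.31 and 8.87 CPM with DMSO and 9.81, 9.95 and 10.4 CPM with AG-205, and T-HESC 8.80, 11.2 and 6.08 CPM with DMSO and 17.2, 6.31 and 7.12 CPM with AG-205. The high value of 17.2 CPM was that of AG-205 replicate 1, and without that library the T-HESC log2 ratio went from 0.22 (95% interval -0.82 to 1.27, adjusted p = 0.993) to -0.40 (adjusted p = 0.754). It was 0.06 in HEC-1A (-0.23 to 0.35, adjusted p = 0.824), and the controls of the lines differed by -0.14 (-0.89 to 0.60, adjusted p = 0.737), all from edgeR. Long noncoding RNAs on the same strand overlap 8.99% and 8.45% of the HILPDA exon length.

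Between the DMSO controls of the lines, 4 of the 9 genes were higher in T-HESC (PLIN2, PLIN3, SOAT1, PNPLA2) and 1 lower (DGAT2), where 29.3% of the 16132 genes tested were higher and 29.5% lower. DGAT1, HILPDA, PNPLA3 and ABHD5 did not pass. Each line stands for itself in this comparison, and the cell of origin, the immortalisation and the tumour cannot be told apart.

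AG-205 against DMSO in HEC-1A could be tested for 8 of the 9 genes. PNPLA3 rose, where 7.35% of the 14122 genes tested rose, and DGAT2 fell, where 4.28% fell. An unadjusted p under 0.05 was found for 2 of the 8, a share near the 26.2% of all genes tested. PNPLA3 also passed a log2 limit of 1, as 2.58% of genes did in that direction. All treated libraries were above all controls for 1 of the 8 genes (16.4% of genes tested) and below them for 1 (15% of genes tested), shares near those of all genes. The median log2 ratio of the 8 was 0.12 against 0.0062 over all genes. Of the 7 epithelial markers, 3 passed as higher with AG-205 in the same libraries, KRT8, KRT19 and CLDN4. The other 4 did not pass, with log2 ratios of -0.10 (EPCAM), 0.07 (CDH1), 0.15 (KRT18) and 0.05 (ESRP1). The sum of the 7 markers was between 2074 and 2140 CPM with AG-205, and their part in these results was not tested.

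In T-HESC, where 8 of the 9 genes were also tested, 0 passed in edgeR's test and 0 in DESeq2, and 4 had an unadjusted p under 0.05 (PLIN2, SOAT1, PNPLA3, ABHD5), as 5.38% of all genes tested did. Of the 13753 genes tested there, 0.08% rose and 0% fell. The same 4 genes had all treated libraries above all controls, which 6.22% of genes tested showed, and none of the 8 had all of them below, as 4.81% did. The median log2 ratio of the 8 was 0.43 against 0.02 over all genes, and 0.31 against -0.02 without AG-205 replicate 1. The spread was larger in this line, with a median SE of 0.325 over all genes against 0.133 in HEC-1A, and PNPLA3 was called in HEC-1A and not in T-HESC at nearly the same ratio. Stromal markers summed to 28100 to 36150 CPM in controls and 17690 to 32150 CPM with AG-205. Of the 8, 0 passed and 1 had a positive log2 ratio, with COL1A1 at -1.09 and COL3A1 at -1.06. Their median was -0.28, or -0.21 without AG-205 replicate 1. Of 4 epithelial markers tested, 0 passed, with KRT18 at -1.47 and KRT19 at 1.05. Without AG-205 replicate 1, a setting chosen after seeing the data, KRT18 passed as lower. The part of these markers in the results was not tested.

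**Figure D3:**
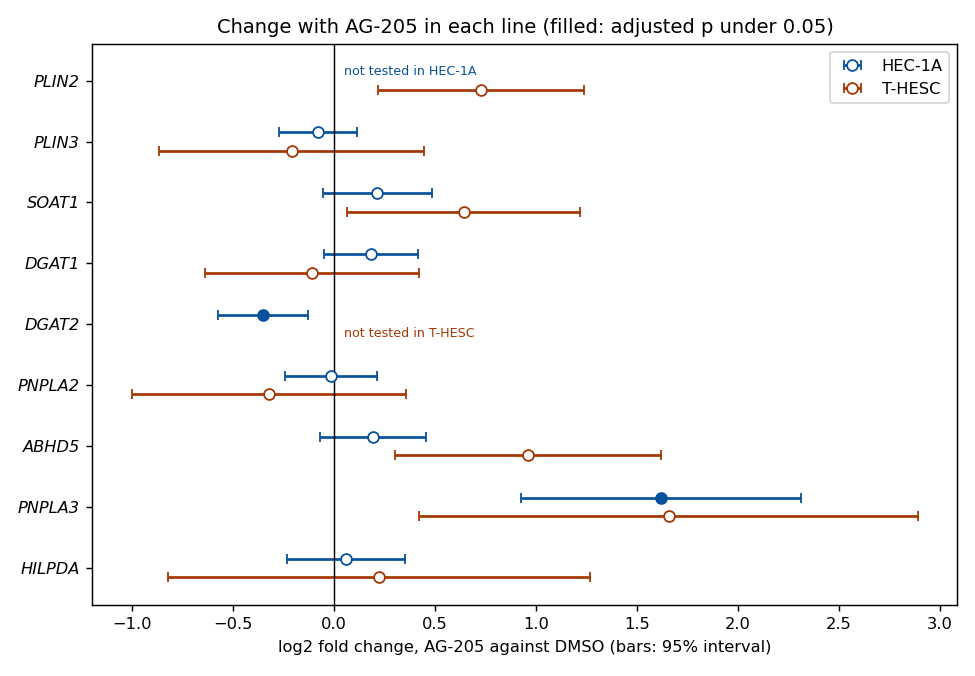
Log2 ratio of AG-205 to DMSO for each gene in HEC-1A and T-HESC, with bars for the 95% interval of edgeR's test and filled points for an adjusted p under 0.05. PNPLA3 lies near 1.6 in both lines with a wider interval in T-HESC, and PLIN2, SOAT1 and ABHD5 have T-HESC intervals above 0 that did not pass after adjustment.

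Whether AG-205 acted differently in the lines was tested as T-HESC ratio minus HEC-1A ratio in 1 fit of all 12 libraries. None of the 9 genes passed in edgeR or DESeq2, and 1, ABHD5, had an unadjusted p under 0.05, as 6.35% of the 16132 genes tested did. Over all genes 0.0434% passed as higher and 0.13% as lower. The difference was 0.77 for ABHD5 (SE 0.308, 95% interval 0.11 to 1.44, adjusted p = 0.69) and 0.72 for PLIN2 (SE 0.530, -0.43 to 1.87, adjusted p = 0.938). That of PNPLA3 was 0.07 (SE 0.649, -1.34 to 1.48, adjusted p = 1), an interval wide enough to hold a difference of either sign larger than 1. For DGAT2 it was -0.13 (SE 0.442, adjusted p = 1), resting on T-HESC counts of 2 to 12.

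Other genes of the same steps were taken as lists. Of 14 further coat and assembly genes, 7 were tested in HEC-1A and 0 passed, with a median log2 ratio of 0.03. Of the 7, 0 had an unadjusted p under 0.05, where 26.2% of all genes tested did. HSD17B11, a droplet-bound dehydrogenase (0.23, adjusted p = 0.28), and BSCL2, or seipin, which shapes new droplets (0.32, adjusted p = 0.365), had the smallest p. The fat cell perilipin PLIN1 was at 0.144 to 0.251 CPM in the group means, and CIDEB had no read. In T-HESC 7 were tested and 0 passed, with the smallest p for LDAF1, the partner of seipin (0.51, adjusted p = 0.993; 0.082 without AG-205 replicate 1), and AUP1 (0.22, adjusted p = 0.993; 0.29 without it). Of 7 tested between the controls, LDAF1 was higher in T-HESC (1.44, adjusted p = 0.00369, edgeR), and HSD17B11 (-1.14) and FAF2 (-0.67) were lower. Over all genes tested there, 29.3% were higher and 29.5% lower.

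Among 13 genes of ester synthesis, 8 were tested in HEC-1A, with a median log2 ratio of 0.03. Of the 8, 1 rose and 1 fell, where 7.35% of all genes tested rose and 4.28% fell. An unadjusted p under 0.05 was found for 3 of the 8, against 26.2% of all genes tested. LPIN1, a phosphatidate phosphatase that makes the diacylglycerol used by DGAT1 and DGAT2, held 20.1, 20.8 and 21.9 CPM with DMSO and 91.3, 109 and 80.2 CPM with AG-205. Its groups were far apart, with a log2 ratio of 2.16 (SE 0.121, adjusted p = 1.53e-07, edgeR), larger than that of any of the 9 genes. GPAT3, which acylates glycerol 3-phosphate at the start of the pathway, held 20.2, 18.0 and 19.8 CPM with DMSO and 12.9, 13.9 and 11.8 CPM with AG-205. It fell, like DGAT2, by 0.57 on the log2 scale (SE 0.120, adjusted p = 0.00877, edgeR), with no overlap.

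In T-HESC 9 of the 13 were tested and 0 passed, with 1 at an unadjusted p under 0.05, as 5.38% of all genes tested were. That gene was LPIN1, with 53.3, 50.98 and 58.1 CPM with DMSO and 120, 147 and 119 CPM with AG-205, groups that did not overlap (log2 ratio 1.23, SE 0.204, adjusted p = 0.125). Without AG-205 replicate 1 it was 1.27 and passed (SE 0.176, adjusted p = 0.0283, edgeR), a setting chosen after seeing the data, and the median of the list went from 0.07 to -0.14. SOAT2, the other sterol acyltransferase, came next at -1.07 (SE 0.660, adjusted p = 0.993) from 1.33 CPM in controls, or -1.41 without that library. The ratio of LPIN1 was 0.91 lower in T-HESC than in HEC-1A on the log2 scale (difference -0.91, SE 0.221), which did not pass (adjusted p = 0.236). Of 8 tested between the controls, LPIN1, LPIN2 and AGPAT2 were higher in T-HESC and GPAT3 lower (log2 difference -2.75). Over all genes tested there, 29.3% were higher and 29.5% lower.

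Among 10 genes of ester hydrolysis, 7 were tested in HEC-1A and 1 rose, where 7.35% of all genes tested did. An unadjusted p under 0.05 was found for 2 of the 7, against 26.2% of all genes tested. LIPA, the lysosomal acid lipase that frees cholesterol and fatty acids from ingested lipoproteins, held 22.7, 24.3 and 24.1 CPM with DMSO and 47.1, 54.9 and 65.3 CPM with AG-205. The groups did not overlap (log2 ratio 1.23, SE 0.126, adjusted p = 4.97e-05, edgeR), and the list's median was 0.07. In T-HESC 8 were tested and 0 passed, with 1 at an unadjusted p under 0.05, as 5.38% of all genes tested were. There LIPA was at 0.43 (adjusted p = 0.993, edgeR), or 0.58 without AG-205 replicate 1 (adjusted p = 0.329).

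G0S2, like HILPDA an inhibitor of PNPLA2, was the gene of this list with the smallest p in T-HESC and differed most between the lines. It had 0 to 4 reads in any HEC-1A library, whereas T-HESC held 199, 227 and 165 CPM with DMSO and 738, 176 and 848 CPM with AG-205. The value of AG-205 replicate 2 lay within the control range and those of replicates 1 and 3 were above it (log2 ratio 1.56, SE 0.529, adjusted p = 0.67; 1.35 without AG-205 replicate 1, adjusted p = 0.455). Next was PNPLA4, a relative of PNPLA2, at -1.02 (adjusted p = 0.961) from 1.65 CPM, or -1.30 without replicate 1. Of 8 tested between the controls, G0S2, MGLL, LIPA and NCEH1 were higher in T-HESC, where 29.3% of all genes tested were. PNPLA4 (-4.74, adjusted p = 6.79e-09, edgeR) and ABHD6 (-2.70) were lower, where 29.5% of all genes tested were. In T-HESC, PNPLA2 and its activator ABHD5 were therefore read together with an inhibitor transcript that was near the floor in HEC-1A.

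**Figure D4:**
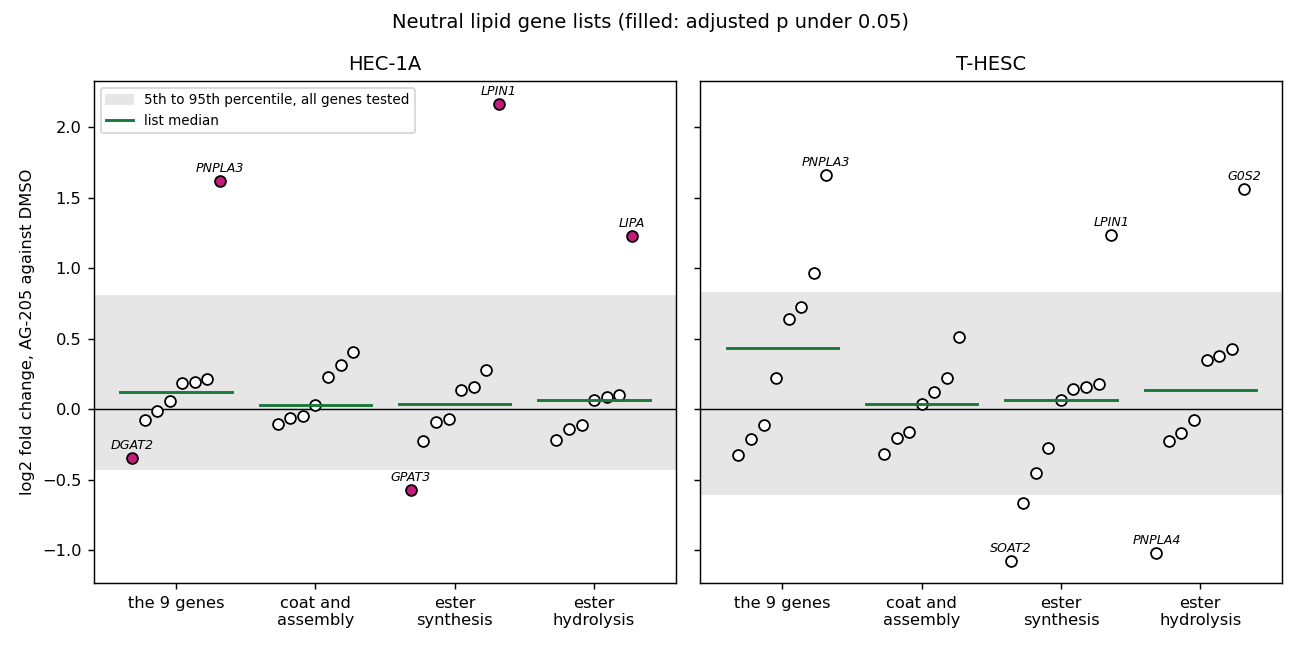
Log2 ratio of AG-205 to DMSO for the tested genes of each list in HEC-1A and T-HESC, each point a gene, filled at an adjusted p under 0.05, with the list median as a line and the range from the 5th to the 95th percentile of all genes as a band. LPIN1, PNPLA3 and LIPA lie above the band in HEC-1A, and no point is filled in T-HESC.

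Neighbouring programmes were read the same way. Of 14 targets of PPAR receptors, the fatty acid sensors that also act on PLIN2, 8 were tested in HEC-1A and 0 passed. An unadjusted p under 0.05 was found for 2 of the 8, a share near the 26.2% of all genes in HEC-1A: ACADVL (0.27, adjusted p = 0.074) and CPT1A (0.26, adjusted p = 0.0746), both of mitochondrial fatty acid oxidation. In T-HESC 11 were tested and 0 passed, with a median log2 ratio of -0.25. An unadjusted p under 0.05 was found for 3 of the 11, against 5.38% of all genes tested in T-HESC. FABP3, a fatty acid carrier, was highest there, with 0.827, 0.745 and 0.399 CPM with DMSO and 6.11, 21.3 and 6.61 CPM with AG-205 (log2 ratio 4.05, SE 0.626, adjusted p = 0.106). It passed without AG-205 replicate 1 (4.34, SE 0.561, adjusted p = 0.0201, edgeR). SLC25A20, the carnitine carrier, was second by p (-0.64, adjusted p = 0.858), and at -0.67 without that library. Of the 11 ratios in T-HESC, 3 were positive.

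Of 14 genes known to be induced by low oxygen, as HILPDA is, 13 were tested in HEC-1A. Of these 3 rose, where 7.35% of all genes tested did: PFKFB4 (log2 ratio 1.48, adjusted p = 2.57e-06), NDRG1 (1.33, adjusted p = 5.21e-05) and CA12 (0.54, adjusted p = 0.00208). An unadjusted p under 0.05 was found for 3 of the 13, against 26.2% of all genes tested in HEC-1A. The list's median was 0.16, and HILPDA itself was at 0.06. In T-HESC 12 were tested and 0 passed, with 1 at an unadjusted p under 0.05, as 5.38% of all genes tested were. That gene was PFKFB4 (0.83, adjusted p = 0.911), followed by CA12 (0.69, adjusted p = 0.993). Without AG-205 replicate 1 these were 1.07 (adjusted p = 0.261) and 1.05 (adjusted p = 0.593). All p values in these lists are from edgeR's test, adjusted over all genes.

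PNPLA3 had the ratio farthest from 0 among the 9 genes in both lines. The genes whose levels followed it most closely over the 12 libraries, after each line was centred on its mean, were WDFY1 (Pearson r 0.938), the unnamed gene ENSG00000285589 (0.936) and PANK1 (0.933), a kinase that starts coenzyme A synthesis. These values describe libraries that share the contrast of AG-205 with DMSO, and carry no p.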

How the data were processed

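RNA counts were analysed for 12 libraries, 3 in each of 4 groups. The authors deposited raw counts per gene: polyA RNA was read in pairs, trimmed with Trimmomatic 0.38, aligned to GRCh38 with HISAT2 2.1.0 and counted with featureCounts (Subread 2.0.0), per the submitters' processing notes and the paper. Strandedness of the counting and reads that match several places are not given in the sources used here.

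Each line was fitted with edgeR 4.0.16 in R 4.3.3 (TMM, filterByExpr, quasi-likelihood test, Benjamini-Hochberg over all genes tested); the difference of effects and the lines in DMSO came from 1 fit of all 12 libraries. The SE was derived from the F value. Other settings used DESeq2 1.42.0 and limma 3.58.1. Depth was 7168542 to 15178276 counts, and 3 counts were taken as the floor. Positions, exon lengths and overlaps came from GENCODE and promoters from RefSeq. The procedure was also run on simulated counts, which held no library standing apart as T-HESC AG-205 replicate 1 does. The outcome of that run is not reported here. Figures used matplotlib 3.10.9.

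Members and lists were chosen with earlier results of these data known. All 9 genes are named; of each other list, those that passed, or the 2 with the smallest p. Genes named between lines, PLIN1, CIDEB, ADIPOQ and LEP among them, were chosen after their values were seen. Sample groups follow the labels. Exact permutation of 3 libraries against 3 cannot go below p = 0.1, so models across genes were used.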

Additional observations from a re-analysis of the deposited data

How the results depend on the processing

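The number of the 9 genes passing in HEC-1A, 2 at the settings used, was 1 (PNPLA3) without the filter, with DESeq2, upper-quartile scaling, an adjusted p under 0.01 or a log2 limit of 1, and 0 in 1 fit of all 12 libraries; leaving out 1 library gave 1 to 2. In T-HESC it was 0, and 1 with library quality weights; leave-one-out gave 0 throughout. For the difference of effects it stayed at 0 in all settings, and between the controls it was 4 to 5.

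Some small ratios changed sign. PNPLA2 in HEC-1A was 0.00056 with upper-quartile scaling, 0.0069 with quality weights, and -0.13 to 0.044 leaving out 1 library. Quality weights gave -0.55 for HILPDA in T-HESC, -0.58 and -0.70 for the differences of effects of HILPDA and PNPLA3, and 0.048 for HILPDA between controls. Leaving out 1 library gave -0.40 to 0.46 for HILPDA, -0.47 to 0.0048 for PLIN3 and -0.28 to 0.017 for DGAT1 in T-HESC; -0.44 to 0.40 (HILPDA), -0.43 to 0.53 (PNPLA3), -0.47 to 0.40 (DGAT2) and -0.38 to 0.11 (PLIN3) for differences of effects; and -0.37 to 0.049 (HILPDA) and -0.28 to 0.017 (ABHD5) between controls. The cause was not tested. Of 11 list genes named in T-HESC, all kept their sign without AG-205 replicate 1, and LPIN1 (adjusted p = 0.0283) and FABP3 (adjusted p = 0.0201) then passed in edgeR's test.

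Counts over all genes moved more. In HEC-1A, 1038 rose and 605 fell, against 146 and 8 in the fit of all 12, 1996 and 1722 with quality weights, 521 and 168 at an adjusted p under 0.01, 364 and 29 with the log2 limit, 2092 and 1922 without AG-205 replicate 3, and 536 and 142 without DMSO replicate 3. In T-HESC, 11 rose and 0 fell, against 104 and 15 with DESeq2, 145 and 36 without the filter, 175 and 31 in the fit of all 12, 319 and 131 with quality weights, 69 and 3 without AG-205 replicate 1, 0 and 0 when AG-205 replicate 2 or any 1 control was left out. For the difference of effects, 7 were higher and 21 lower, against 35 and 65 with DESeq2, 54 and 87 without the filter, 253 and 276 with quality weights, and 43 and 43 without AG-205 replicate 1 of T-HESC. Upper-quartile scaling moved the median of all genes between controls from -0.02 to -0.18.

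Replicate numbers are shared between groups. Same-numbered libraries correlated in their deviations at -0.10, 0.31 and -0.00017 in HEC-1A and 0.19, -0.56 and -0.029 in T-HESC. AG-205 replicate 2 of HEC-1A correlated best with the control of its own number, and the other AG-205 libraries with a control of another number. In T-HESC the highest values were 0.494 (AG-205 replicate 1 with control 2), 0.719 (2 with 3) and 0.207 (3 with 1). With 3 libraries per group these values cannot tell whether same-numbered libraries share a culture. With the replicate block, 1 of the 9 genes passed in HEC-1A, 0 in T-HESC, 0 in the difference and 5 between controls; over all genes 926 rose and 514 fell in HEC-1A and 9 and 0 in T-HESC, and 0 passed in the difference. Depth limits PLIN2 in HEC-1A and DGAT2 in T-HESC, read 2 to 12 times per library.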
